A study of Mus musculus with 29 samples.

Results

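The genes described here are 10 genes of MHC class I antigen presentation, measured by RNA sequencing in livers of obese male mice that carried a SUMO-deficient form of the transcription factor Prox1 (K556R) or wild-type Prox1. They were taken as the rows of the read count table whose Ensembl gene identifiers belong to the symbols H2-K1, H2-D1, H2-T23, B2m, Tap1, Tap2, Tapbp, Psmb8, Psmb9 and Nlrc5. They are 10 of the 54532 identifiers in the table, and all 10 are among the 15603 genes that had enough counts to be tested. In every mouse the diet was regular chow up to the age of 8 weeks and then, for 18 weeks, a diet high in fat (45%) and fructose (20%). The labels describe the K556R allele as conditional and specific to hepatocytes, and say that Cre recombination switched it on at 8 weeks of age. The sample titles name the K556R libraries Cre and the wild-type libraries Ctrl. The Cre driver or vector, and whether wild-type mice received Cre, are not stated in the labels. If they did not, an effect of Cre or its vector cannot be told apart from one of the K556R allele in any genotype comparison below. Livers were taken in the refed or the fasted state at ZT 15 to 17, that is, 15 to 17 hours after lights on. There were 8 refed K556R, 6 refed wild-type (WT), 7 fasted K556R and 8 fasted WT libraries, 29 in all. They fell into 2 batches, as the labels call them, of which batch 1 held 4, 3, 4 and 4 libraries of these groups and batch 2 held 4, 3, 3 and 4. What differed between the batches is not stated.

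MHC class I molecules show short peptides from inside the cell to CD8 T cells and natural killer cells. The proteasome cuts proteins into peptides, the TAP transporter carries the peptides into the endoplasmic reticulum, and tapasin helps load them onto a heavy chain paired with beta-2 microglobulin. Interferons raise the expression of many genes of the pathway, and NLRC5 is the transcriptional activator that acts on class I genes. In the liver, hepatocytes, endothelial cells and immune cells all carry class I molecules, so whole-liver RNA mixes their contributions, and a change in the number of cells of a type cannot be told apart from a change in RNA per cell.

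Total counts ran from 14385218 to 27278251 per library, with 19065976 to 27278251 in batch 1 and 14385218 to 23526145 in batch 2. Prox1 itself had 150 ± 25.5 CPM (read counts scaled to a common library total) in refed K556R and 164 ± 22.7 in refed WT livers, and 186 ± 12.3 in fasted K556R and 174 ± 13 in fasted WT livers (SD), and a gene count does not show a point mutation, so it does not check the genotype labels. The 12 hepatocyte markers summed to between 69840 and 121085 CPM in each library, which fits the liver label. In marker lists, 3 libraries that each held an extreme sum were taken as standing apart, a choice made after the data had been seen. Every list has a highest and a lowest library, so other libraries with extreme sums were kept. Among these, the third fasted K556R library of batch 2 had the lowest hepatocyte markers (69840 CPM). It also had the highest dendritic cell (30.9 CPM) and neutrophil (9.97 CPM) markers. The third fasted WT library of batch 1 had 221 CPM of B cell markers, against 6.36 to 32.8 CPM in the other 28, and also the highest summed macrophage markers (1070 CPM). Refed K556R replicate 4 of batch 1 had the lowest summed endothelial (150 CPM) and stellate cell (216 CPM) markers. The first refed WT library of batch 2 had the lowest B cell markers (6.36 CPM), but the lowest refed K556R library was near, at 8.48 CPM. Results are given below with and without these 3 libraries where the call differs. Nothing in the labels says whether 2 libraries of a group can share an animal, so each p-value covers only the variation among libraries, which may be technical.

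Before the expression values, 5 promoters are shown, because class I genes are known for shared promoter elements through which interferon-activated factors and NLRC5 act. The sequences come from the RefSeq promoter table for GRCm38.p6 and run from 250 bases before to 50 bases after the annotated start, 5′ to 3′ on the gene's strand. The table held entries for 8 of the 10 genes, with Tap2 and Nlrc5 missing. Capitals mark GAAANNGAAA (the core of the interferon-stimulated response element, ISRE), CCAAT (the box bound by NF-Y) and TGACG (part of the cAMP response element, CRE), on either strand, so that a match on the other strand reads as its reverse complement. No matches of different motifs overlapped. The B2m promoter lies at chr2:122147437-122147736 on the plus strand, those of H2-K1 and H2-T23 at chr17:34000298-34000597 and chr17:36032652-36032951 on the minus strand, and those of H2-D1 and Tap1 at chr17:35262844-35263143 and chr17:34187306-34187605 on the plus strand.
B2m: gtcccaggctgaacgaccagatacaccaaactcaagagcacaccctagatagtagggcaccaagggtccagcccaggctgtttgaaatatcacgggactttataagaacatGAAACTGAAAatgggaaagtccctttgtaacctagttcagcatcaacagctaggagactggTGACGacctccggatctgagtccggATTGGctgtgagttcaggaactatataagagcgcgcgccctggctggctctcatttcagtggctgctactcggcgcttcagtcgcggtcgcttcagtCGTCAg
H2-T23: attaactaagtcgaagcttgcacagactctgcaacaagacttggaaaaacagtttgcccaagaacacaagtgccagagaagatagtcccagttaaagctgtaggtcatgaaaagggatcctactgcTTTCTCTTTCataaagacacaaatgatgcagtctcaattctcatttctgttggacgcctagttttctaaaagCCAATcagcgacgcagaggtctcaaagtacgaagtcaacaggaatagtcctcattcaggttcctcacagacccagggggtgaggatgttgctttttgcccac
H2-K1: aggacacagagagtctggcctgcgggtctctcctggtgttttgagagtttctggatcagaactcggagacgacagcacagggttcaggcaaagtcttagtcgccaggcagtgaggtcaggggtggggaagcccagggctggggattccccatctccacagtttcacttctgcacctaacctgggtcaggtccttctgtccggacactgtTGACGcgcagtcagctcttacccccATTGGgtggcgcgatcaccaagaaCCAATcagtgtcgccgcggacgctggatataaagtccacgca
H2-D1: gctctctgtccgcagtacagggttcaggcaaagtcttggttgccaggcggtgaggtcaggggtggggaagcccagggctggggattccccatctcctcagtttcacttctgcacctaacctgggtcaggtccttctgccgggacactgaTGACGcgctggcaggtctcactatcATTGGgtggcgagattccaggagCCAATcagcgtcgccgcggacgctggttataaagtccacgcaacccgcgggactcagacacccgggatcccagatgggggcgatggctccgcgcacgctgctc
Tap1: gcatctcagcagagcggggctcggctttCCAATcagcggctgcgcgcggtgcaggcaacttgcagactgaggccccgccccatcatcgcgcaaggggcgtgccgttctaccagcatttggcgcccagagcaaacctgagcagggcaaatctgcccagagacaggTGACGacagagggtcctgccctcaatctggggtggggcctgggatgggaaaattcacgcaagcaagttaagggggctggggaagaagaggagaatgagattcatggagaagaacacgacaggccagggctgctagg
The ISRE core was found in 2 of the 8 promoters, at 139 bases before the start of B2m and 124 bases before that of H2-T23, while 3.44% of all 32851 promoters of this length hold it. The B2m, H2-K1 and H2-D1 promoters each carry TGACG followed after 20 bases by ATTGG, the reverse complement of CCAAT, and TGACG begins 78, 41 and 101 bases before their starts. The table lists a further start for H2-K1 (window chr17:34000284-34000583), and there TGACG begins 55 bases before the start. That arrangement occurs in 0.0944% of all promoters (31 of 32851), and the 20-base distance was chosen after these sequences had been seen. CCAAT on either strand was found in 7 of the 8 (37.4% of all promoters) and TGACG in 5 of the 8 (20.8%). The remaining motif searched, TTCNNNGAA (the core of the gamma-activated sequence, GAS), was found in 1 of the 8, Psmb8, and in 8.3% of all promoters. Aligned without gaps over the 239 bases that they share, the H2-K1 and H2-D1 promoters are 88.3% identical. Psmb9 lies on the minus strand with its start 226 bases from that of Tap1, and 275 bases of the Tap1 window above belong to the Psmb9 window too. Only exact matches of the motif letters were counted, so a promoter without a match may still hold a variant of the element. These matches describe the letters in the windows only.

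By GENCODE M21 on GRCm38, H2-K1 (ENSMUSG00000061232) spans bases 33996017 to 34000347 of chromosome 17 and H2-D1 (ENSMUSG00000073411) bases 35262730 to 35267499. B2m (ENSMUSG00000060802) spans bases 122147686 to 122153083 of chromosome 2 and Nlrc5 (ENSMUSG00000074151) bases 94434356 to 94527272 of chromosome 8. The other 6 lie on chromosome 17 between 33915899 and 36032855. The sources used here do not say whether the counting used strand. Tap1 and Psmb9 overlap at their starts on opposite strands, B2m overlaps Patl2, and H2-T23 overlaps A930015D03Rik. Tap2 and Psmb8 overlap Gm20496, Tap2 also overlaps Gm15821, and Tapbp overlaps Zbtb22 and Gm19412. Nlrc5 overlaps 9330175E14Rik on the opposite strand and Mir7072 on the same strand. Reads in the shared stretches may therefore be split between neighbours. The class I heavy chains are close paralogs of one another, and their counts are uncertain for that reason.

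Class I transcripts were abundant in these livers and their levels spanned a wide range. Per kilobase of exon, B2m, the light chain of every class I molecule, had the highest level, 1850 ± 235 CPM per kb (SD, n = 29). The order depends on the length of all annotated exons of a gene, 860 bases for B2m and 2938 for H2-K1. Before division by length, fasted WT livers averaged 1478 CPM of B2m and 1534 CPM of H2-K1. The classical heavy chains H2-K1 and H2-D1 followed with 527 ± 43.8 and 289 ± 37.4 CPM per kb, and H2-T23, which encodes the nonclassical molecule Qa-1, had 79.4 ± 9.46. Outside the 10 genes, the class I heavy chain H2-Q10 had group means of 2850 to 3161 CPM, above the 1528 to 1595 CPM of H2-K1. Tapbp (tapasin, the peptide loading chaperone) had 19.9 ± 2.56 CPM per kb, Psmb8 and Psmb9 (catalytic subunits of the immunoproteasome) 8.35 ± 1.27 and 6.52 ± 0.949, the transporter subunits Tap1 and Tap2 6.07 ± 1.04 and 5.61 ± 0.568, and Nlrc5 3.77 ± 0.644. The order from B2m down to Psmb8, and of Tap2 above Nlrc5, was the same in 29 of 29 libraries. Psmb8 was above Psmb9 in 26 of 29, Psmb9 above Tap1 in 18 of 29 and Tap1 above Tap2 in 21 of 29, so the levels of Psmb9, Tap1 and Tap2 did not separate beyond their spread. Across all 29 libraries, the highest CPM was 1.33 times the lowest for H2-K1, the steadiest of the 10, and 2.16 times for Nlrc5. It was 2.15 times for Psmb9, whose lowest value, 13.7 CPM, came from 1 library.

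**Figure D1:**
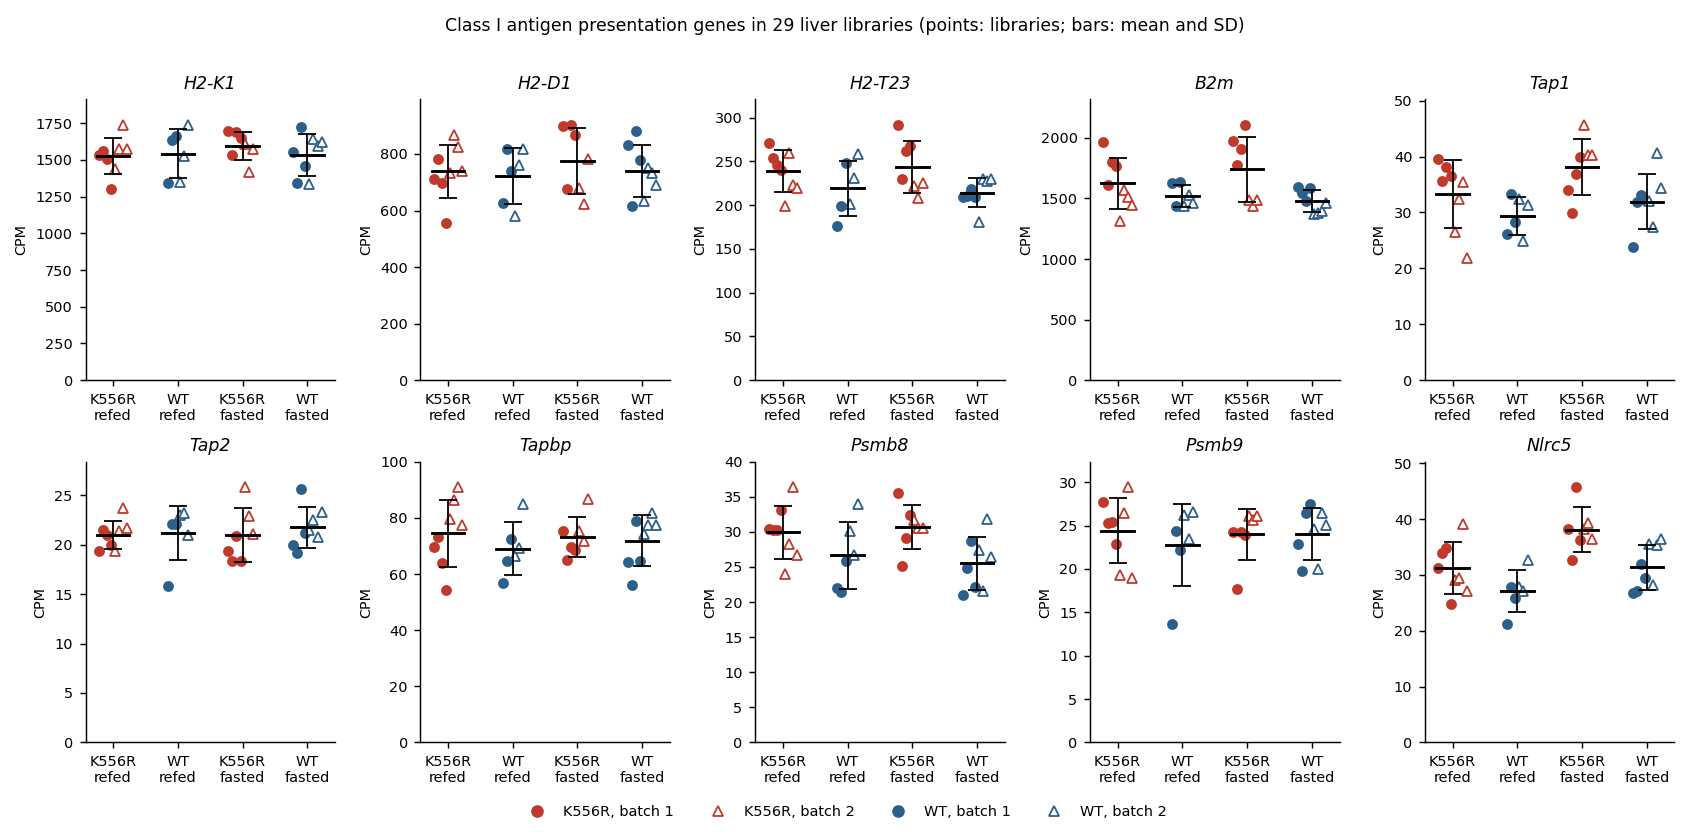
CPM (linear axis from 0) of the 10 genes in each library, by group, with filled circles for batch 1, open triangles for batch 2, and bars for the mean and SD. The B2m libraries of fasted K556R livers sit at 1777 to 2106 CPM in batch 1 and at 1439 to 1491 CPM in batch 2, while H2-K1 has group means of 1528 to 1595 CPM.

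The first comparison asks whether class I genes differ between livers with SUMO-deficient Prox1 and WT livers, averaged over refed and fasted states and adjusted for batch. None of the 10 genes passed the test (edgeR quasi-likelihood test, Benjamini-Hochberg adjusted p below 0.05 over all 15603 genes), where 1.24% of all genes did (98 higher and 96 lower in K556R, so 0.628% were higher). Of the 10, 9 had positive log2 fold changes, with a median of 0.11 against 0.0022 over all genes, and 5 had an unadjusted p below 0.05, as did 2291 of all genes. The largest difference was that of Nlrc5, with a log2 fold change of 0.25 (SE 0.066, 1.19-fold, adjusted p = 0.0524). DESeq2 called 2 of the 10, B2m and Nlrc5, both higher in K556R, and 2.73% of all genes (178 higher and 248 lower).

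In the refed state alone, 0 of the 10 genes and 0% of all genes passed the edgeR test, 1 of the 10 had an unadjusted p below 0.05 (1319 of all genes), and DESeq2 called 0 of the 10 and 0.282% of all genes. In the fasted state alone, 0 of the 10 passed where 0.103% of all genes did, 5 of the 10 had an unadjusted p below 0.05 (1479 of all genes), and DESeq2 called 1 of the 10, B2m, and 0.57% of all genes. Positive values were found for 8 of the 10 in refed livers, with a median log2 fold change of 0.11, and for 9 of the 10 in fasted livers, with a median of 0.12.

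**Figure D2:**
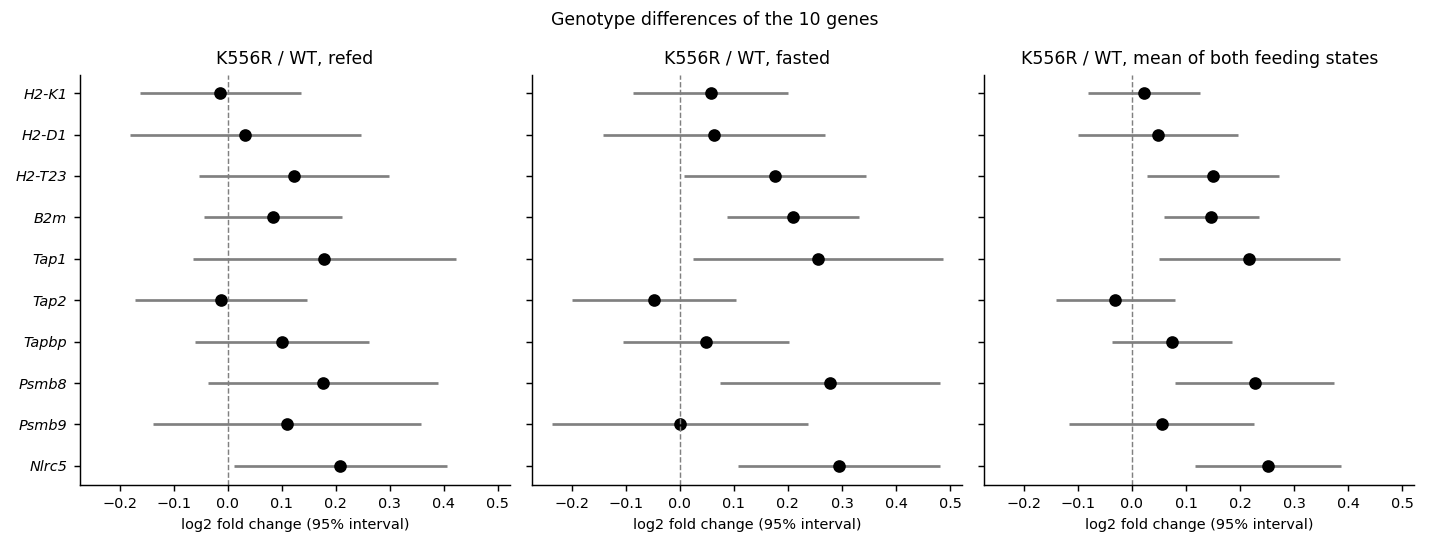
Log2 fold changes of K556R over WT for the 10 genes in the refed state, in the fasted state and over the mean of both (points), with 95% intervals (lines). In the mean of both states the intervals of H2-T23, B2m, Tap1, Psmb8 and Nlrc5 lie above 0, from 0.15 for B2m and H2-T23 to 0.25 for Nlrc5, while no adjusted p is below 0.05.

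Among the heavy chains, the classical genes did not differ detectably. H2-K1 averaged 1528 ± 124 CPM in refed K556R and 1542 ± 166 CPM in refed WT livers, and 1595 ± 97.5 CPM in fasted K556R and 1534 ± 142 CPM in fasted WT livers (SD; n = 8, 6, 7 and 8). Its log2 fold change in the mean of both states was 0.022 with a 95% interval of -0.081 to 0.125, and the groups overlapped in both states. H2-D1 averaged 739 ± 94.5 CPM in refed K556R and 724 ± 98.8 CPM in refed WT livers, and 776 ± 116 CPM in fasted K556R and 740 ± 91.7 CPM in fasted WT livers, with a log2 fold change of 0.048 (interval -0.10 to 0.20).

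H2-T23, the ligand of the NKG2A receptor on natural killer and T cells, separated the genotypes in fasted livers of batch 1 only. In fasted livers of batch 1 it had 292, 230, 261 and 267 CPM in K556R, against 209, 210, 218 and 209 CPM in WT, and every K556R library was above every WT library. In fasted livers of batch 2 it had 222, 208 and 225 CPM in K556R, against 181, 230, 228 and 230 CPM in WT, and the groups overlapped. Refed livers ran from 199 to 271 CPM in K556R (median 243) and from 177 to 259 CPM in WT (median 216), which overlap too. The log2 fold change in the mean of both states was 0.15 (SE 0.060, adjusted p = 0.222).

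B2m, which pairs with every class I heavy chain and also with CD1d and the Fc receptor FcRn, had no overlap between genotypes in fasted livers of batch 1 either. In fasted livers of batch 1 it had 1976, 1777, 1912 and 2106 CPM in K556R, against 1595, 1547, 1479 and 1588 CPM in WT. In fasted livers of batch 2 it had 1483, 1439 and 1491 CPM in K556R, against 1373, 1383, 1395 and 1462 CPM in WT, with 1 K556R library below the highest WT library. In refed livers of batch 1 it had 1969, 1608, 1801 and 1767 CPM in K556R, against 1631, 1441 and 1638 CPM in WT. The 3 highest refed values of batch 1 were thus all from K556R livers, while the lowest K556R library lay within the WT range. In refed livers of batch 2 it had 1314, 1571, 1510 and 1449 CPM in K556R, against 1439, 1526 and 1466 CPM in WT, and the WT values lay inside the K556R range. The log2 fold change in the mean of both states was 0.15 (SE 0.043, 1.11-fold, adjusted p = 0.0831).

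The values of the TAP subunits and tapasin were unlike, and none passed the test. Tap1, the subunit whose gene shares its promoter stretch with Psmb9, had 39.5, 35.5, 38.1 and 36.5 CPM in refed K556R livers of batch 1, against 26.1, 33.2 and 28.3 CPM in WT, with no overlap. In refed livers of batch 2 it had 26.6, 32.4, 35.4 and 21.9 CPM in K556R, against 32.4, 24.9 and 31.3 CPM in WT, and K556R held both the highest and the lowest value. In fasted livers it ran from 30.0 to 45.6 CPM in K556R (median 39.9) and from 23.9 to 40.6 CPM in WT (median 32.1), and the groups overlapped. Its log2 fold change in the mean of both states was 0.22 (SE 0.082, 1.16-fold, adjusted p = 0.194). Tap2, the other subunit of the heterodimer, had 21 ± 1.46 CPM in refed K556R and 21.2 ± 2.75 CPM in refed WT livers, and 21 ± 2.69 CPM in fasted K556R and 21.7 ± 2.06 CPM in fasted WT livers. It was the one gene of the 10 with a negative value in the mean of both states, -0.031 (interval -0.14 to 0.079). Tapbp had 74.5 ± 11.9 CPM in refed K556R and 69.1 ± 9.49 CPM in refed WT livers, and 73.2 ± 7.06 CPM in fasted K556R and 71.8 ± 9.06 CPM in fasted WT livers, with a log2 fold change of 0.074 (interval -0.037 to 0.19).

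Of the immunoproteasome subunits, Psmb8 averaged higher in K556R than in WT livers in both states without passing the test, and Psmb9 had similar averages. Psmb8 (LMP7), the inducible replacement for Psmb5, had 30.4, 30.3, 30.3 and 33.1 CPM in refed K556R livers of batch 1, against 22.1, 21.4 and 25.8 CPM in WT, with no overlap. In refed livers of batch 2 it had 24.1, 28.2, 36.4 and 26.8 CPM in K556R, against 30.2, 26.7 and 33.9 CPM in WT, and the groups overlapped. In fasted livers it ran from 25.2 to 35.5 CPM in K556R (median 30.6) and from 20.9 to 31.8 CPM in WT (median 25.7), also with overlap. Its log2 fold change in the mean of both states was 0.23 (SE 0.072, 1.17-fold, adjusted p = 0.110). Psmb9 (LMP2), the inducible replacement for Psmb6, averaged 24.4 ± 3.80 CPM in refed K556R and 22.8 ± 4.76 CPM in refed WT livers, and 24 ± 2.93 CPM in fasted K556R and 24 ± 2.96 CPM in fasted WT livers. Its log2 fold change of 0.055 had an interval of -0.12 to 0.23, and the difference between the 2 subunits was not tested.

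Immunoproteasome subunits can also be read against the constitutive subunits that they replace. Per kilobase, the ratio of Psmb8 to Psmb5 was 0.0927 ± 0.0173 in refed K556R and 0.0739 ± 0.0125 in refed WT livers, and 0.0985 ± 0.00862 in fasted K556R and 0.0754 ± 0.0166 in fasted WT livers (SD). Psmb5 itself had 86.9 ± 7.46 CPM in refed K556R and 96.2 ± 9.16 CPM in refed WT livers, and 83.1 ± 7.57 CPM in fasted K556R and 91.5 ± 11 CPM in fasted WT livers. The ratio of Psmb9 to Psmb6 was 0.133 ± 0.0261 in refed K556R and 0.119 ± 0.0225 in refed WT livers, and 0.145 ± 0.0221 in fasted K556R and 0.133 ± 0.0158 in fasted WT livers. For Psmb10 over Psmb7, the remaining pair, the ratio was 0.813 ± 0.191 in refed K556R and 0.814 ± 0.258 in refed WT livers, and 0.753 ± 0.161 in fasted K556R and 0.779 ± 0.173 in fasted WT livers. Per kilobase, Psmb8 and Psmb9 transcripts were thus below those of their counterparts in all 4 groups, and the ratios were not tested. The ratios depend on the length of all annotated exons, 3381 bases for Psmb8 and 3660 for Psmb9. Before division by length, fasted K556R livers averaged 30.7 CPM of Psmb8 and 83.1 CPM of Psmb5. They averaged 24 CPM of Psmb9 and 85.1 CPM of Psmb6, and 28.5 CPM of Psmb10 and 77.6 CPM of Psmb7. The size of the ratios, and how the 3 pairs compare, therefore rest partly on the annotation.

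Nlrc5, the class I transactivator, had the highest log2 fold change of the 10 in both states. In refed livers of batch 1 it had 31.2, 33.9, 34.9 and 24.8 CPM in K556R, against 21.2, 27.9 and 25.9 CPM in WT, with 1 K556R library inside the WT range. In refed livers of batch 2 it had 29.2, 29.4, 39.1 and 27.1 CPM in K556R, against 27.7, 27.1 and 32.7 CPM in WT. Refed groups therefore overlapped in both batches. In fasted livers of batch 1 it had 38.2, 32.7, 45.7 and 36.3 CPM in K556R, against 26.7, 27.1, 32.0 and 29.5 CPM in WT. In fasted livers of batch 2 it had 38.1, 39.2 and 36.5 CPM in K556R, against 35.5, 28.2, 35.3 and 36.4 CPM in WT. It was the only one of the 10 for which every fasted K556R library was above every fasted WT library in both batches, and in batch 2 the lowest K556R value was 36.5 CPM and the highest WT value 36.4 CPM. Its log2 fold change was 0.21 (SE 0.096, adjusted p = 0.557) in refed and 0.29 (SE 0.091, adjusted p = 0.257) in fasted livers. Its mean over both states lay beside the threshold: the adjusted p was 0.0393 without the 3 libraries that stood apart, and leaving out each of the 29 libraries in turn gave 0.0259 to 0.0931, below 0.05 in 9 of the 29 fits.

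Counted within each state and batch, every K556R library was above every WT library for 2 of the 10 genes in refed livers of batch 1 (Tap1 and Psmb8; 3.73% of all genes), for 0 of the 10 in refed livers of batch 2 (4.86% of all genes), for 3 of the 10 in fasted livers of batch 1 (H2-T23, B2m and Nlrc5; 2.44% of all genes) and for 1 of the 10 in fasted livers of batch 2 (Nlrc5; 3.19% of all genes).

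The genotype values were higher in batch 1 than in batch 2 for 7 of the 10 genes, and the difference between batches passed the test for none of them. Fitted in batch 1 alone, the log2 fold change in the mean of both states was 0.38 for Psmb8 (SE 0.084, adjusted p = 0.0452), 0.36 for Nlrc5 (adjusted p = 0.0701), 0.30 for H2-T23 (adjusted p = 0.0756), 0.29 for Tap1 (adjusted p = 0.134) and 0.26 for B2m (adjusted p = 0.0772). In batch 2 alone the values of the same genes were 0.074, 0.14, -0.0032, 0.15 and 0.033, with adjusted p from 0.643 to 0.994. H2-K1 gave 0.022 and 0.019, H2-D1 0.011 and 0.069, Tapbp 0.047 and 0.10, Tap2 -0.065 and 0.020, and Psmb9 0.12 and 0.0057 in batches 1 and 2. Tests of the difference itself, batch 2 minus batch 1, called 0 of the 10 genes and 0% of all genes with edgeR, while 1224 of all genes and 3 of the 10 had an unadjusted p below 0.05 (DESeq2 was not run on this term). The differences between batches were -0.29 for H2-T23 (SE 0.11, adjusted p = 0.613), -0.22 for B2m (SE 0.076, adjusted p = 0.613), -0.30 for Psmb8 (SE 0.13, adjusted p = 0.622) and -0.23 for Nlrc5 (SE 0.13, adjusted p = 0.662).

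**Figure D3:**
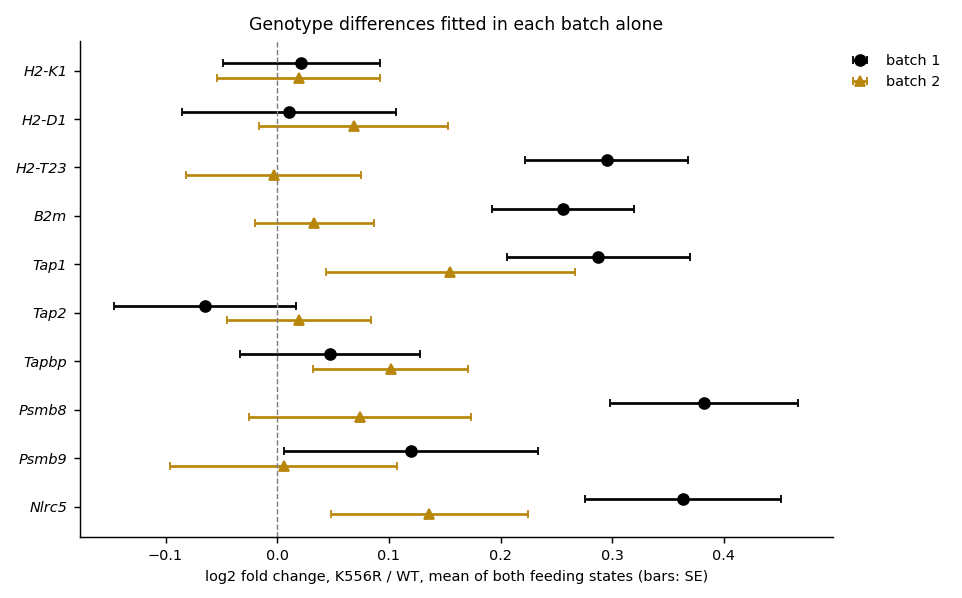
Log2 fold changes of K556R over WT in the mean of both feeding states, fitted in batch 1 alone (circles) and batch 2 alone (triangles), with bars for the SE. Psmb8, Nlrc5, H2-T23, Tap1 and B2m lie between 0.26 and 0.38 in batch 1 and between -0.0032 and 0.15 in batch 2, while H2-K1 is near 0 in both.

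The second comparison asks whether class I genes change between refed and fasted livers. In K556R livers, Nlrc5 was the one gene of the 10 that passed the edgeR test, and it fell in the refed state, with a log2 fold change of -0.30 (SE 0.091, 0.814-fold, adjusted p = 0.0238), where 15.4% of all genes passed (1088 higher and 1309 lower). DESeq2 called it too, with 17.2% of all genes. It ran from 24.8 to 39.1 CPM in refed K556R livers (median 30.3) and from 32.7 to 45.7 CPM in fasted K556R livers (median 38.1). The call was lost without fasted replicate 3 of batch 1 (adjusted p = 0.0779), refed replicate 4 of batch 1 (0.0501) or refed replicate 4 of batch 2 (0.0590), and without the 3 libraries that stood apart (-0.26, adjusted p = 0.0535). Within batches the value was -0.28 in batch 1 and -0.30 in batch 2 (adjusted p = 0.157 and 0.121).

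In WT livers, 0 of the 10 genes passed the edgeR test for refed against fasted livers, where 10.7% of all genes did (819 higher and 848 lower). DESeq2 called 0 of the 10 and 12.2% of all genes, and 1 of the 10, Nlrc5, had an unadjusted p below 0.05. It ran from 21.2 to 32.7 CPM in refed WT livers and from 26.7 to 36.4 CPM in fasted WT livers, with a log2 fold change of -0.21 (SE 0.096, adjusted p = 0.179), and its values were thus negative in both genotypes. The other 9 genes lay between -0.20 (Tap1) and 0.024 (Psmb9) in K556R livers and between -0.12 (Tap1) and 0.059 (Psmb8) in WT livers. In K556R livers Tap1 had 0.10 in batch 1 alone (adjusted p = 0.643) and -0.55 in batch 2 alone (adjusted p = 0.0312), and the difference between the batches was not tested. Tests of the genotype by feeding interaction called 0 of the 10 genes and 0% of all genes with edgeR, and DESeq2 also called 0% of all genes. Of all genes 440, and of the 10 genes 0, had an unadjusted p below 0.05, and the interaction values of the 10 ran from -0.13 (B2m) to 0.11 (Psmb9).

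The regulators of class I genes were read from a list of 20 tested genes that holds the NLRC5 partners (RFX, NF-Y and CREB family genes), STAT and IRF factors, NF-kB subunits and Polycomb repressor subunits. In K556R against WT livers over both states, 2 of the 20 rose and 0 fell, with a median log2 fold change of 0.051. Of all genes, 1.24% passed this test, and 0.628% were higher in K556R. Irf9, which binds the ISRE after type I interferon signalling, had 47.6 ± 10.8 CPM in refed K556R and 35.8 ± 4.14 CPM in refed WT livers, and 45.2 ± 5.12 CPM in fasted K556R and 30.3 ± 4.98 CPM in fasted WT livers, with a log2 fold change of 0.48 (SE 0.082, adjusted p = 0.00182). Stat2, a signal transducer of the type I interferon receptor, had 97 ± 9.16 CPM in refed K556R and 88.2 ± 11.5 CPM in refed WT livers, and 92.8 ± 8.21 CPM in fasted K556R and 75.9 ± 5.33 CPM in fasted WT livers, and rose by 0.21 (SE 0.052, adjusted p = 0.0354). In fasted livers alone Irf9 passed (0.56, adjusted p = 0.0415), where 0.103% of all genes did. There DESeq2 called both Irf9 and Stat2 (Stat2 0.29, edgeR adjusted p = 0.104), and 0.57% of all genes. In refed livers 0 of the 20 passed with edgeR or DESeq2, with 2 at an unadjusted p below 0.05. For refed against fasted livers, edgeR called 1 of the 20 higher in K556R, where 15.4% of all genes passed. In WT it called 3 higher and 1 lower, where 10.7% of all genes passed. DESeq2 called 2 of the 20 in K556R and 5 in WT, with 17.2% and 12.2% of all genes. The NF-Y subunit Nfyb was higher in refed than in fasted livers, both in K556R (0.45, adjusted p = 4.82e-05) and in WT (0.28). In WT livers Atf1 and Eed also rose in the refed state (0.22 and 0.23) and Stat3 fell (-0.38), and in K556R livers these had 0.14 (adjusted p = 0.192), 0.16 (adjusted p = 0.104) and -0.31 (adjusted p = 0.0544, called by DESeq2). For Stat2, DESeq2 alone called refed against fasted WT livers (edgeR 0.22, adjusted p = 0.0630), while K556R livers had 0.065 (adjusted p = 0.618). The interaction test called none of these regulators.

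Of the 21 interferon ligands, receptors, Janus kinases and SOCS inhibitors listed, 11 could be tested, and 0 of these passed in K556R against WT livers over both states with edgeR or DESeq2 (0 at an unadjusted p below 0.05), with 4 positive values. The ligands Ifna1, Ifna4, Ifna5, Ifne, Ifnl2 and Ifnl3 had 0 counts in all 29 libraries. In refed against fasted livers, 3 of the 11 passed in K556R, all lower, where 15.4% of all genes passed. In WT 1 of the 11 passed, also lower, where 10.7% of all genes passed. The interferon gamma receptor chain Ifngr2 was lower in K556R (-0.49) and in WT (-0.37), as were in K556R the type I receptor chain Ifnar2 (-0.25) and the feedback inhibitor Socs3 (-0.76). In WT livers these had -0.21 (adjusted p = 0.0655) and -0.54 (adjusted p = 0.245).

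Other class I genes, 16 tested, gave 0 calls in K556R against WT livers over both states with edgeR, 6 at an unadjusted p below 0.05, and 3 calls with DESeq2 (H2-T10, H2-T24 and Fcgrt). Of all 15603 genes, edgeR called 1.24% and DESeq2 2.73%, and 2291 had an unadjusted p below 0.05. Their values were positive for 10 of 16, with a median log2 fold change of 0.14. The smallest p-values were those of Fcgrt, the heavy chain of the Fc receptor FcRn, which also pairs with B2m (-0.15, adjusted p = 0.0600), and of H2-T10 (0.37, adjusted p = 0.0787). In refed against fasted livers Fcgrt, the 1 call among the 16, was lower in K556R (-0.22, adjusted p = 0.00747), where 15.4% of all genes passed. In WT it had -0.17 (adjusted p = 0.0598) and was called by DESeq2, with 12.2% of all genes. Genes for peptide supply and loading beyond the 10, 18 tested, gave 0 calls with edgeR and DESeq2 between genotypes over both states (0 at an unadjusted p below 0.05), and 1 in refed against fasted K556R livers, the aminopeptidase Lnpep (-0.29, adjusted p = 0.0140), which had -0.26 in WT livers (adjusted p = 0.0562) and was called there by DESeq2. The 14 constitutive 20S proteasome subunits gave 0 calls between genotypes with either tool (2 at an unadjusted p below 0.05), with Psmb5 at -0.14 and Psmb4 at -0.11 (adjusted p = 0.195 and 0.261). In refed against fasted livers all 14 had positive values in both genotypes, and Psma1, Psmb3 and Psma2 passed the test in K556R livers and Psma3 in WT livers. Over all genes, 15.4% passed this comparison in K556R livers and 10.7% in WT livers. Psma3 had 0.14 in K556R (adjusted p = 0.0597, called by DESeq2) and 0.18 in WT, while Psma1, Psmb3 and Psma2 had 0.18, 0.18 and 0.17 in K556R and 0.12, 0.11 and 0.095 in WT. The interaction test called none of these genes. Class II presentation genes, 10 tested, gave 0 calls between genotypes with either tool (1 at an unadjusted p below 0.05) and 7 positive values, median 0.023.

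Markers of the other cell types that a liver sample holds gave no call between genotypes over both states with edgeR or DESeq2, but several lists leaned to one side, and their part in the class I values was not tested. All 16 macrophage markers had positive values, with a median log2 fold change of 0.15 and 1 at an unadjusted p below 0.05. They summed to 423 to 712 CPM in refed K556R and 341 to 588 CPM in refed WT livers, and to 301 to 869 CPM in fasted K556R and 304 to 1070 CPM in fasted WT livers, ranges that overlap. T and NK cell markers, with the receptors for class I, were positive for 9 of 13 (median 0.35, 1 at an unadjusted p below 0.05) and summed to 6.94 to 18.6 CPM in refed K556R and 7.02 to 10.4 CPM in refed WT livers, and to 7.15 to 17.2 CPM in fasted K556R and 4.40 to 19.1 CPM in fasted WT livers. Dendritic cell markers were positive for 7 of 7 (median 0.30), neutrophil markers for 3 of 3 (0.18), cholangiocyte markers for 4 of 4 (0.30), stellate cell markers for 8 of 10 (0.12), endothelial markers for 5 of 9 (0.015), B cell markers for 1 of 7 (-0.26) and the 1 tested adipocyte marker for 0 of 1 (-0.39). These 7 lists had 1, 0, 1, 0, 1, 0 and 0 markers at an unadjusted p below 0.05. Hepatocyte markers were positive for 2 of 12 (median -0.082, 3 at an unadjusted p below 0.05).

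Of 10977 other genes with enough expression, those whose pattern over the 29 libraries was most like the mean of the 10 class I genes were Uba7, Ube2l6, Zbp1, H2-T22, Bst2, Isg15, Oasl1, Irf7, Adar and H2-Q7. Likeness was measured as the Pearson correlation of log2 CPM values centred within each batch and feeding state, and it ran from 0.838 for Uba7 to 0.754 for H2-Q7, with Spearman values of 0.849 and 0.742. The libraries share depth and cell makeup, so these values are descriptions and carry no p. Several of these genes have well-known places in the interferon response. Uba7 and Ube2l6 encode the enzymes that attach the ubiquitin-like protein Isg15 to other proteins, Zbp1 is a sensor of Z-form nucleic acid, Bst2 is the antiviral membrane protein tetherin, and Irf7 is a transcription factor that drives type I interferon genes. H2-T22 and H2-Q7 are class I heavy chains themselves. Centred within genotype as well, the correlation was 0.837 for Uba7, 0.772 for Zbp1, 0.808 for H2-T22 and 0.639 for Adar, the lowest of the 10.

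The values were not centred within genotype when these 10 genes were chosen, so a shared genotype difference helped choose them, and their fold changes are given as a description. Over both states the log2 fold changes of K556R over WT ran from 0.19 for H2-T22 to 0.87 for Irf7. Irf7 had 65.4 ± 22.3 CPM in refed K556R and 37.0 ± 7.67 CPM in refed WT livers, and 75.2 ± 33.0 CPM in fasted K556R and 35.7 ± 4.42 CPM in fasted WT livers. Isg15 had 12.5 ± 4.92 CPM in refed K556R and 6.85 ± 1.63 CPM in refed WT livers, and 11.3 ± 5.6 CPM in fasted K556R and 5.62 ± 1.29 CPM in fasted WT livers, with a log2 fold change of 0.86. Zbp1 had 0.76, Oasl1 0.65, Adar 0.36, Bst2 0.33, Uba7 0.30, H2-Q7 0.24 and Ube2l6 0.22.

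**Figure D4:**
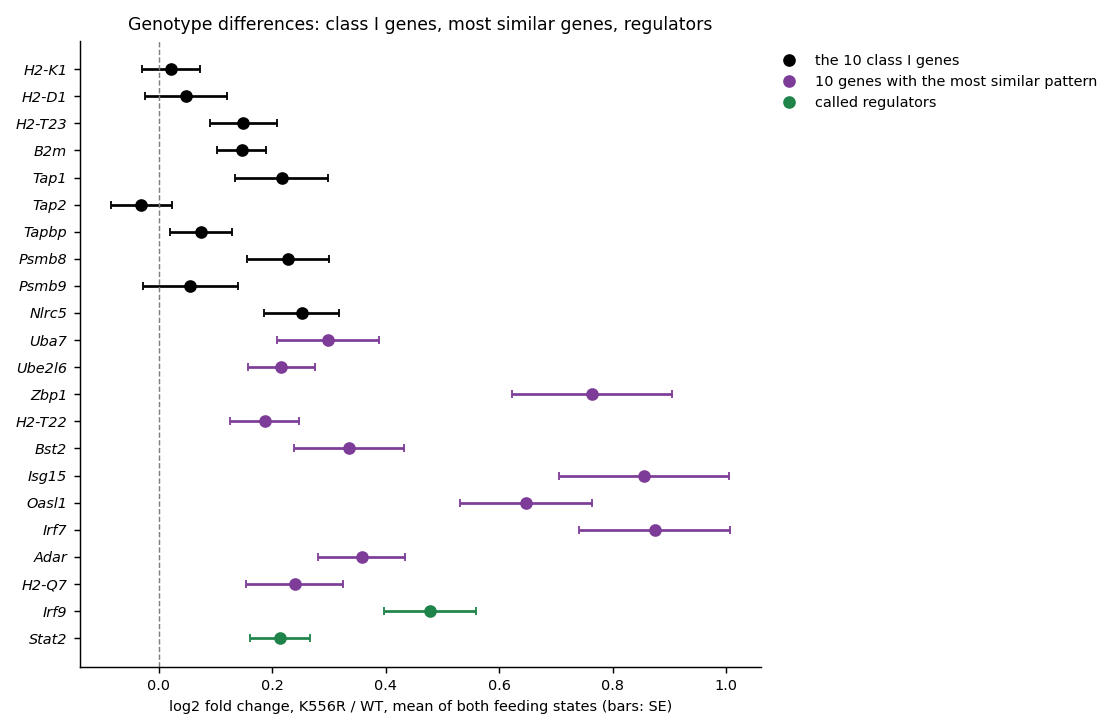
Log2 fold changes of K556R over WT in the mean of both feeding states for the 10 class I genes (black), the 10 genes of most similar pattern (purple) and the 2 called regulators (green), with bars for the SE. The class I genes lie between -0.031 and 0.25, the similar genes between 0.19 and 0.87, and Irf9 and Stat2 at 0.48 and 0.21.

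The 10 genes did not vary as 1 block across livers. Of their 45 pairs, 44 had a positive Pearson correlation over the 29 libraries after centring within batch and feeding state, with a median of 0.453. H2-K1, H2-D1 and Tapbp were closest, with 0.849 for H2-K1 and H2-D1 (Spearman 0.795), 0.831 for H2-D1 and Tapbp (0.812) and 0.811 for H2-K1 and Tapbp (0.811). Tap1 had high values with Psmb8 (0.778, Spearman 0.776), Nlrc5 (0.716, Spearman 0.706) and Psmb9 (0.692, Spearman 0.692), and H2-T23 and B2m had 0.721 (Spearman 0.707), which was 0.473 when centred within genotype as well. The lowest pair was B2m and Tap2 at -0.236. The paralogy of H2-K1 and H2-D1 and the overlap of Tap1 and Psmb9 bear on 2 of these pairs. The correlation with the mean of the other 9 genes was 0.795 for Nlrc5, 0.710 for Psmb9, 0.469 for B2m and 0.333 for Tap2. Centred within genotype as well it was 0.725 for Nlrc5, 0.846 for Psmb9, 0.196 for B2m and 0.533 for Tap2, so the order of the genes depended on the centring. The median over all pairs was then 0.473.

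**Figure D5:**
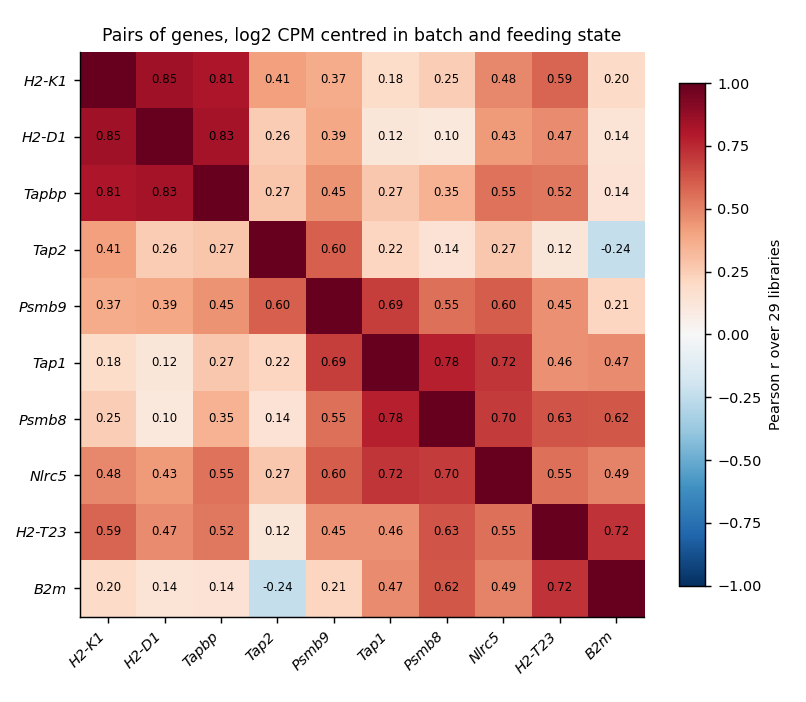
Pearson correlations between the 10 genes over the 29 libraries, from log2 CPM centred within batch and feeding state, on a scale from -1 (blue) to 1 (red). H2-K1, H2-D1 and Tapbp correlate at 0.811 to 0.849, Tap1 with Psmb8 and Nlrc5 at 0.778 and 0.716, and B2m with Tap2 at -0.236.

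The neighbours of the class I genes on chromosome 17 were compared in the same fit. Between the first and last of the class I genes there (33915899 to 36032855), 102 other genes were tested. In K556R against WT livers over both states, 0 of the 102 passed with edgeR, where 1.24% of all genes did. Of the 102, 13 had an unadjusted p below 0.05, as did 2291 of all 15603 genes. DESeq2 called 1 of the 102 (H2-T24) and 2.73% of all genes. The values of these neighbours were positive for 39 of 102, with a median log2 fold change of -0.028. In refed against fasted livers 4 of the 102 rose and 2 fell in K556R, where 15.4% of all genes passed. In WT livers 3 rose and 6 fell, where 10.7% of all genes passed.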

How the data were processed

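Poly-A RNA from liver was sequenced in 29 libraries, and the deposited table holds whole-number read counts per Ensembl gene, not normalized. Alignment and counting tools listed in the submitters' processing notes, without versions, are TopHat, STAR, STAR-Fusion and HTSeq, beside edgeR and DESeq2, with mm10 as the genome build. The annotation release, the strand setting and the handling of reads that map to several genes are not given in the sources used here. Per the labels, libraries were made as directional or non-directional, without saying which.

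Of 54532 identifiers, 54495 were matched to symbols and positions in GENCODE M21. The 37 unmatched ones held 0.000917% of counts. The filterByExpr function (minimum count 10, minimum total 15) kept 15603 genes, which hold 99.92% of counts. Counts were scaled by TMM and fitted with edgeR 4.0.16 (quasi-likelihood, R 4.3.3) on the 4 groups plus batch, over all 29 libraries, with a call where the p-value, adjusted by Benjamini-Hochberg over all tested genes, was below 0.05. The SE is the log2 fold change divided by the square root of F. CPM values use TMM-scaled totals, log2 CPM a prior count of 2, and levels between genes are per kilobase of union exon length. Alternatives were DESeq2 1.42.0, other size factors, no filter, no batch term, each batch alone, only the groups compared, the replicate block and each library left out. Leaving out the 3 libraries that stood apart, and the genotype by batch term, were added after the data had been seen. The fit was tested on simulated data. No 2 libraries of a group agreed within sampling noise (chi-square per degree of freedom from 11 to 167 over 92 pairs). Reads carry no molecular identifiers.

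The text names all 10 genes, the called genes of each list (at most 4, or the 2 of smallest p without a call), and the 10 genes most correlated with the mean of the 10. Single genes called by DESeq2 alone were added after their values were seen, as were Psmb5 to Psmb7 and Psmb10 as counterparts and H2-Q10 for its level. A gene of the regulator list is not reported here. The 10 genes and all lists were chosen with earlier results of these data known. Promoters came from the RefSeq table for GRCm38.p6, and motifs were searched on both strands.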

Additional observations from a re-analysis of the deposited data

Results flagged for a closer look

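Each of the 10 class I genes was screened in each of the 4 groups for a library far from the others of its group, which made 40 sets and gave 4 hits, where chance gives about 1 in 20. H2-T23 stood at 181 CPM in the first fasted WT library of batch 2, while the other fasted WT libraries ran from 209 to 230 CPM. Tap2 stood at 15.8 CPM in the first refed WT library of batch 1, while the others of that group ran from 20.9 to 23.2 CPM. The same library had the lowest Psmb9 value of all 29, 13.7 CPM, against 22.1 to 26.6 CPM in the other refed WT livers. Psmb9 also stood at 17.7 CPM in the second fasted K556R library of batch 1, against 23.9 to 26.2 CPM in the other fasted K556R livers.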

How the results depend on the processing

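Of the 10 genes, 0 were called for K556R against WT over both states. The count was 1 with DESeq2's size factors in edgeR (Nlrc5), 1 in batch 1 alone (Psmb8), 1 without the 3 libraries that stood apart (Nlrc5), and 2 with DESeq2 (B2m and Nlrc5), which called 2.73% of all genes where edgeR called 1.24%. It ran from 0 to 1 when each library was left out in turn (Nlrc5 in 9 of 29 fits). In fasted livers the count was 0, and 1 with DESeq2 (B2m), which called 0.57% of all genes where edgeR called 0.103%. For refed against fasted K556R livers the count of 1 (Nlrc5) was 0 in batch 1 alone and 0 without the 3 libraries that stood apart, and it ran from 0 to 1 over the libraries left out. In batch 2 alone it was 1 but the gene was Tap1. The causes were not tested, and a batch alone also has fewer libraries.

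Each of the 60 log2 fold changes was recomputed under the alternatives, 2260 values in all, of which 6 lost a call, 16 gained one and 6 reversed. The other 2232 kept their side of the threshold, and 135 of these changed sign. A change of sign counted as reversed only where the reported value was called or exceeded its SE, and the 135 were of values under 1 SE. The 6 were H2-T23 over both states (-0.0032), and H2-T23 (-0.030), B2m (-0.015), Tap1 (-0.025) and Psmb8 (-0.070) in refed livers, all K556R against WT in batch 2 alone, and Tap1 in refed against fasted K556R livers in batch 1 alone (0.10).

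With the replicate block, the count was 0 for K556R against WT over both states, in refed and in fasted livers, 1 for refed against fasted K556R livers (Nlrc5), 0 in WT livers and 0 for the interaction. Libraries of the same number in different groups of a batch had correlations from -0.365 to 0.214 (40 pairs, median -0.109, 7 over 0.1). Libraries of other numbers had a median of -0.056. These values come after group and batch means were removed, which itself lowers correlations, so they cannot settle whether numbers pair libraries. The labels do not say. Tap2, Psmb9 and Nlrc5 rest on as few as 318, 286 and 384 counts in a library, and B2m on at least 19925.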
